A study of Arabidopsis thaliana with 9 samples.

Results

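Of the 17043 genes of Arabidopsis thaliana that reached 2 CPM in each wild-type library, 141 (0.827%) were at most at 1/12 of their wild-type mean, that is 8.33%, in both the spaQ and the cop1-4 mutant. CPM is the count of a gene divided by the total of its library, times 1000000. The count table held 32548 genes with AT identifiers in all. The members were picked by these levels, so their values against the wild type are a description and carry no test. RefSeq lists 139 of them as protein coding and 2, AT1G09103 and AT5G02865, as long non-coding RNAs. Whole seedlings aged 3 days and grown in darkness were sequenced in 3 groups of 3 libraries: spaQ, cop1-4 and the wild type Col-0, which is also the background of both mutants. All groups had the same treatment: 3 days of cold at 4 °C in the dark, 3 h of white light, 21 h of darkness, a far-red exposure and then 2 days in the dark. The name spaQ stands for loss of SPA1, SPA2, SPA3 and SPA4, and cop1-4 for a weak allele of COP1. The labels give no SPA alleles. They also leave it unsaid whether replicate libraries come from different sowings, and the p-values below measure library-to-library spread, part of which can be technical.

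COP1 is a ubiquitin ligase that works together with SPA proteins in darkness, where it marks light-promoting transcription factors for destruction. A wild-type seedling in the dark therefore follows the etiolated programme: a long hypocotyl, a closed apical hook, small cotyledons, and plastids filled with protochlorophyllide reductase. Auxin, gibberellin and ethylene synthesis and cell wall loosening belong to this programme, and mutants of COP1 or SPA look light-grown in darkness.

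Library totals ran from 22482588 to 38770474 counts. COP1 averaged 29.7 CPM in cop1-4 and 36.8 CPM in Col-0, and with trimmed-mean (TMM) scaling the log2 fold change was 0.01 (adjusted p = 0.949). By library totals COP1 was at 80.6% of Col-0. On that scale 1 of the 5 COP1 and SPA genes was called lower in cop1-4 than in Col-0 and 3 were called higher. With TMM scaling no SPA gene was called lower in spaQ than in Col-0, and with library totals SPA2 was (47.9 CPM in spaQ and 59.4 CPM in Col-0), so the transcript levels are no check of the label spaQ. The 8 root hair markers summed to 307 to 389 CPM in spaQ, 313 to 501 CPM in cop1-4 and 309 to 444 CPM in Col-0. With TMM scaling 4 of the 8 were called higher in spaQ than in Col-0 and 6 in cop1-4, and 0 lower. With library totals 3 were called higher and 1 lower in each mutant. The 6 antenna markers of green cells summed to 4639 to 5544 CPM in spaQ, 10659.7 to 11278 CPM in cop1-4 and 961 to 1195 CPM in Col-0. The 6 stele and root tip markers summed to 133 to 139 CPM in spaQ, 129 to 143 CPM in cop1-4 and 222 to 247 CPM in Col-0. These 6 went both ways, with 3 called lower and 2 higher in each mutant (TMM scaling). PHO1 averaged 36.3 CPM in spaQ and 53.0 CPM in cop1-4 against 126 CPM in Col-0. In whole seedlings, fewer cells of a type and less RNA per cell cannot be told apart, and the part that tissue make-up plays in any value below was not tested.

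The 141 members together took 0.0358%, 0.0314% and 0.0315% of all counts in the spaQ libraries and 0.043%, 0.0505% and 0.0547% in cop1-4, against 1.11%, 1.06% and 1.15% in Col-0. The median member was left with 1.83% of its Col-0 mean in spaQ and 4.07% in cop1-4. At most 1% was left for 44 members in spaQ and for 22 in cop1-4. Their Col-0 means ran from 2.63 to 1036 CPM around a median of 16.6 CPM, against 21.8 CPM over all genes that met the Col-0 minimum. Of these means, 19 were above 100 CPM, 67 between 10 and 100 CPM and 55 at or below 10 CPM, and the 10 members with the highest counts made 63.8% of the total. Per kilobase of exon the leaders in Col-0 were PRP2 (778 CPM per kb), PIP2;4 (649.6) and PORA (574). The members' exon length had a median of 1448 bases and 22.7% had a single exon block, against 1829 bases and 13.8% over the genes meeting the Col-0 minimum. Each mutant alone met the limit for more genes, 350 in spaQ (2.05%) and 193 in cop1-4 (1.13%), and the members made 40.3% of the spaQ set and 73.1% of the cop1-4 set.

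**Figure D1:**
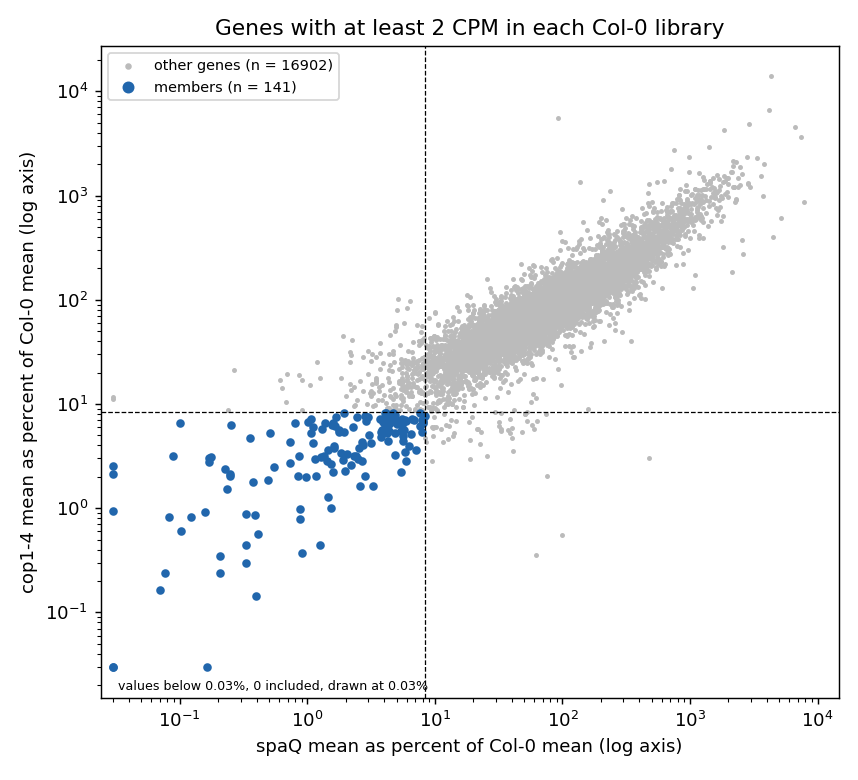
Mean CPM in spaQ (horizontal) and in cop1-4 (vertical) as a percentage of the Col-0 mean, on log axes, for the 17043 genes that met the Col-0 minimum. Blue points are the 141 members, grey points the other genes, and dashed lines mark the limit of 8.33%, so the members fill the lower left corner by construction.

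Cell wall genes were the largest block by counts. The 11 members of this kind summed to 181, 145 and 159.9 CPM in spaQ and 167, 191 and 213 CPM in cop1-4, against 3642, 3555 and 4152 CPM in Col-0. Those that no longer met the limit with TMM-adjusted totals include PRP2, GH9C2, GH9B8 and XTH18. PRP2, which encodes a proline-rich structural wall protein, had 77.5, 65.4 and 71.6 CPM in the spaQ libraries and 64.5, 71.3 and 81.2 CPM in the cop1-4 libraries, against 976, 915 and 1217 CPM in Col-0. The mutants overlapped with each other and kept about the same share, 6.9% in spaQ and 6.98% in cop1-4. ATPMEPCRD, a pectin methylesterase gene, had 2.73, 2.53 and 2.28 CPM in spaQ and 17.3, 21.4 and 23.7 CPM in cop1-4, against 942, 995 and 1098 CPM in Col-0. Its spaQ libraries lay far below the cop1-4 libraries, with no overlap (log2 fold change of spaQ over cop1-4 -2.98, SE 0.13, adjusted p = 5.35e-10). A second pectin methylesterase gene, PME61, was left with 0.205% in spaQ and 0.352% in cop1-4, and there the mutants overlapped. Its protein is the closest paralog of ATPMEPCRD, with 70.1% identical residues.

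GH9C2 encodes an endoglucanase, an enzyme that cuts glucan chains, and had 56.1, 41.3 and 42.7 CPM in the spaQ libraries and 47.6, 50 and 52.5 CPM in the cop1-4 libraries, against 589, 629 and 615 CPM in Col-0. The mutants overlapped here too, with 7.64% in spaQ and 8.19% in cop1-4 left. Endoglucanase genes GH9B8, CEL2 and GH9B12 are also members. CEL2 kept less than 1% of its Col-0 level in either mutant. XTH17 and XTH18 encode xyloglucan endotransglucosylases, which cut and rejoin the xyloglucan tethers of the wall. XTH17 had 9.96, 6.4 and 9.47 CPM in spaQ and 12.2, 17.6 and 21.5 CPM in cop1-4, against 608, 539 and 655 CPM in Col-0, so that the spaQ libraries lay below every cop1-4 library. XTH18 had 30.4, 26.3 and 30.3 CPM in the spaQ libraries and 19.8, 25.8 and 28.5 CPM in the cop1-4 libraries, against 364, 321 and 401 CPM in Col-0, and here the mutant libraries overlapped. The proteins of this pair are 93.3% identical, so shared reads make the split between them uncertain. Of the other 15 expansin and xyloglucan enzyme genes tested, 10 fell and 5 rose in spaQ, and 9 fell and 3 rose in cop1-4, where 36.1% and 35.5% of all tested genes were called lower and higher in spaQ and 30.3% and 31.8% in cop1-4. XTH19, for example, averaged 50.4 CPM in spaQ and 40.8 CPM in cop1-4 against 432 CPM in Col-0, a loss that stayed short of the limit in both. Scaling by library totals left 2 of the rises in each mutant.

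The 6 peroxidase and laccase genes, whose products oxidise phenolic compounds in the wall, included the member with the smallest remainder among the 19 above 100 CPM in Col-0. The peroxidase gene AT1G49570 had 0.0666, 0.181 and 0.105 CPM in spaQ and 0.329, 0.407 and 0.356 CPM in cop1-4, against 153, 156 and 149.6 CPM in Col-0. That left 0.0768% in spaQ and 0.238% in cop1-4, and the spaQ libraries were all below the cop1-4 libraries. Peroxidase gene AT4G36430 varied among the spaQ libraries, with 1.57 CPM in replicate 2 against 0.2 and 0.0701 CPM in replicates 1 and 3. Its Col-0 libraries held 22.8 to 26.2 CPM.

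Auxin response and transport genes made 13 of the members. Aux/IAA proteins are short-lived repressors of auxin-responsive transcription, and their genes are themselves induced by auxin. Of the 27 family genes with enough reads to be tested, 5 were members. IAA19 had 3.3, 2.63 and 3.05 CPM in the spaQ libraries and 6.14, 7.47 and 7.56 CPM in the cop1-4 libraries, against 181, 172 and 204 CPM in Col-0. IAA6 had 0.0999, 0 and 0.0351 CPM in spaQ and 0.15, 0.37 and 0.267 CPM in cop1-4, against 29, 25.2 and 31.3 CPM in Col-0, and IAA29 had 0.133, 0.645 and 0.421 CPM in the spaQ libraries and 1.41, 1.63 and 1.87 CPM in the cop1-4 libraries, against 26.1, 25.9 and 22.9 CPM in Col-0. In all 3 genes the spaQ libraries lay below the cop1-4 libraries. IAA32 had 0.333, 0.284 and 0.351 CPM in spaQ and 0.419, 0.628 and 0.534 CPM in cop1-4, against 11.8, 9.33 and 10.5 CPM in Col-0. IAA5 had 0.0666, 0.0258 and 0.0351 CPM in the spaQ libraries and 0.0898, 0.222 and 0 CPM in the cop1-4 libraries, against 3.68, 3.07 and 3.22 CPM in Col-0, and its mutant libraries rest on 4 reads in all in spaQ and 9 in cop1-4 and overlap. IAA32 is overlapped over 38.8% of its length by AT2G01210, and, with the strandedness of the counting unknown here, its reads are uncertain.

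**Figure D2:**
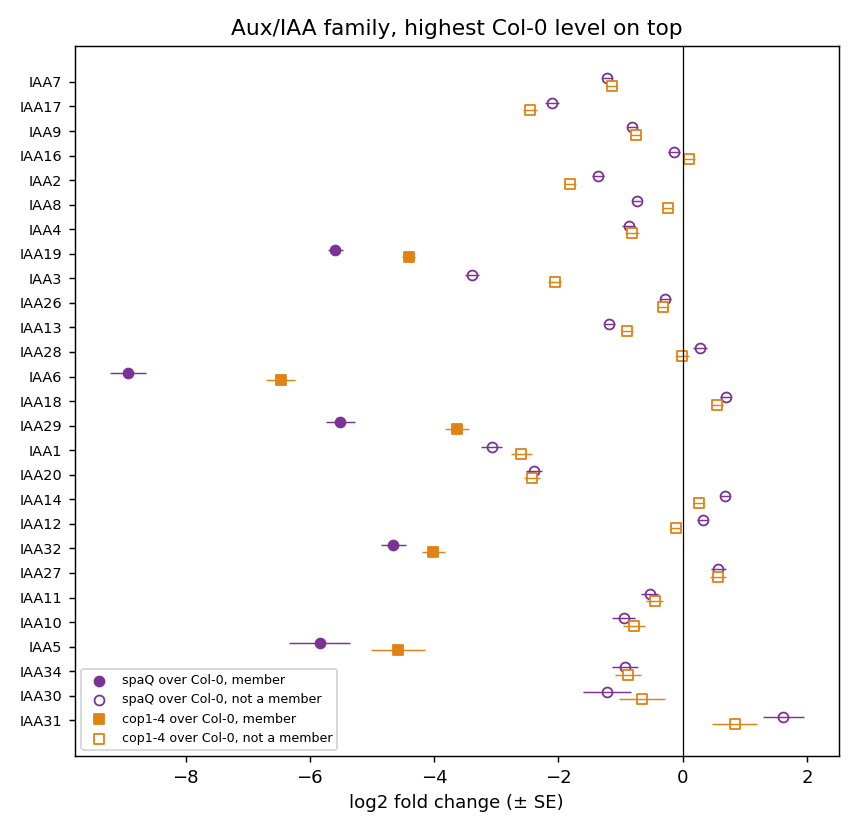
Log2 fold change against Col-0 (horizontal, ± SE) of the tested Aux/IAA genes, ordered by their Col-0 mean CPM; filled symbols are the members, open symbols the rest of the family, purple circles spaQ and orange squares cop1-4. The 5 members lie to the left of the rest of the family because the limit chose them, while IAA3, IAA1, IAA20 and IAA17 come next and IAA18 and IAA27 lie right of 0 in both mutants.

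In the rest of the Aux/IAA family, IAA3 met the limit in spaQ alone, with 7.38% left there and 19.4% in cop1-4. Among the 22 tested genes that are no members, 15 fell and 6 rose in spaQ, and 14 fell and 3 rose in cop1-4. Their median log2 fold changes were -0.84 and -0.70, against -0.02 and 0.01 over all genes. With library totals the counts were 16 lower and 3 higher in spaQ and 17 lower and 1 higher in cop1-4, since the median over all genes then moves to -0.39 and -0.31, and IAA12 and IAA28 in spaQ and IAA14 in cop1-4 changed sign. IAA17 fell by 2.1 in spaQ and by 2.46 in cop1-4 on the log2 scale, and IAA3 by 3.39 and by 2.06. No gene of auxin synthesis, conjugation or transport on the list used was a member. Of its 19 tested genes 12 fell in spaQ and 16 in cop1-4 with TMM scaling, and the other 7 and 3 were not called. Of all tested genes 36.1% were called lower in spaQ and 30.3% in cop1-4. With library totals 16 of the 19 were lower in spaQ and 19 in cop1-4. The lowest values in spaQ (TMM scaling) were those of LBD29 (-3.34), GH3.1 (-3.21) and YUC9 (-3.20).

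Beyond the repressors, the auxin group holds 5 genes of the SAUR family, small growth-promoting proteins induced by auxin, and the kinase genes WAG1 and WAG2, whose products phosphorylate auxin transporters. WAG2 had 3.13, 2.27 and 1.93 CPM in spaQ and 2.58, 4.25 and 4.14 CPM in cop1-4, against 87.3, 85.3 and 96.8 CPM in Col-0. WAG1 is the closest paralog of WAG2 and kept 1.63% in spaQ and 3.97% in cop1-4. The SAUR genes were scarce, with Col-0 means of 8.67 to 12.7 CPM, and kept 0.0881% to 4.2% in spaQ and 0.87% to 5.27% in cop1-4. AIR1, a gene first described as auxin-induced in root cultures, had 0.633, 0.593 and 0.526 CPM in the spaQ libraries and 7.04, 6.84 and 9.34 CPM in the cop1-4 libraries, against 193, 137 and 161 CPM in Col-0. The spaQ libraries lay far below the cop1-4 libraries, but AIR1 is overlapped over 92.9% of its length by AT4G12555 and its reads are uncertain.

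The sequence just before the start of the member genes was searched for the letters CACGTG (the G-box, which reads the same on both strands) and CACATG (the PBE-box, CATGTG on the other strand), hexamers bound by phytochrome-interacting factors and other basic helix-loop-helix proteins. In the window of 250 bases before to 50 bases after the start in RefSeq TAIR10.1, 12.1% of members held a G-box, against 9.07% of the genes meeting the Col-0 minimum and 7.68% of all protein-coding genes. A PBE-box was found in 23.4% of members, 12.9% of the genes meeting the Col-0 minimum and 12.9% of all protein-coding genes. The letters TGTCTC, read as an auxin response motif, were in 12.8%, 13.5% and 14.2%, and TATAAA in 57.4%, 51.3% and 52.1%. In the 250 bases before the start alone, 41 members (29.1%) held at least 1 G-box or PBE-box and 8 (5.67%) held at least 2, against 17.5% and 3.36% of the genes meeting the Col-0 minimum. These are matches of letters, not shown to be bound. The windows of the 5 among these 8 with the highest Col-0 levels follow, 5′ to 3′ on the gene's own strand and ending at the base before its start, with the boxes in capitals. They lie at chr3:5263751-5264000 (plus strand), chr1:19673653-19673902 (minus), chr1:10319482-10319731 (plus, SAUR68), chr5:20819818-20820067 (plus) and chr1:18346708-18346957 (plus, the peroxidase gene above).
IAA19: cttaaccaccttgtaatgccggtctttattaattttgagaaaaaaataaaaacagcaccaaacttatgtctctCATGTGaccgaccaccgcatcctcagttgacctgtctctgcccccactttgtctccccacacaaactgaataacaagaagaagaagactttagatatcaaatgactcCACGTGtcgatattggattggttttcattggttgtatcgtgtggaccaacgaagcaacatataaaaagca
IAA6: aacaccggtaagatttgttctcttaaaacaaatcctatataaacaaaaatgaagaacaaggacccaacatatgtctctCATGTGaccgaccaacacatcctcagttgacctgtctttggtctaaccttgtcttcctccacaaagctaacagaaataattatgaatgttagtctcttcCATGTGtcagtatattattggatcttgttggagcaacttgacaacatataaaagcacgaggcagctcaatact
AT1G29490: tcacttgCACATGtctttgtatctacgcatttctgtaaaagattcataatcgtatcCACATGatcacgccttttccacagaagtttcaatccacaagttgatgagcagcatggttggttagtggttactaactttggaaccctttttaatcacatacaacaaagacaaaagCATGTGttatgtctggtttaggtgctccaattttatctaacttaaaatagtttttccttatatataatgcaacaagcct
OLEO3: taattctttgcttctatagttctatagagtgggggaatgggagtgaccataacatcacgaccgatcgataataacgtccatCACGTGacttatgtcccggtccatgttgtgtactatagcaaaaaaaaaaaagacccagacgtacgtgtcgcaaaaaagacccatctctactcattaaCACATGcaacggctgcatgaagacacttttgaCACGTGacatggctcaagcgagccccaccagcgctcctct
AT1G49570: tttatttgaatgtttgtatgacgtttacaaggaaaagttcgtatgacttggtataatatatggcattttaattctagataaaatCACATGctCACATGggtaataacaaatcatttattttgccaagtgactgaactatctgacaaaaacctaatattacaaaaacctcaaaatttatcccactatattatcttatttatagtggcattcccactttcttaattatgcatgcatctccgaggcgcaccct

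The IAA19 and IAA6 windows share 2 long runs of letters in the same order. The first, of 23 bases, is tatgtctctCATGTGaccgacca and holds a PBE-box just behind the letters of the auxin motif. It starts 186 bases before the start of IAA19 and 181 bases before that of IAA6. The second, of 20 bases, is catcctcagttgacctgtct and starts 160 and 155 bases before them. Nearer the start, 70 bases before it, IAA19 has a G-box, whereas IAA6 has a PBE-box 73 bases before its own. XTH17 and XTH18 share their last 73 bases before the start without a difference, and these include a PBE-box. The 6 other pairs of members that are closest paralogs shared no run longer than 13 bases, the length reached by WAG1 and WAG2.

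The members include 4 genes of ethylene, gibberellin and cytokinin synthesis. ACS5, whose product makes the ethylene precursor ACC, had 0.4, 0.438 and 0.316 CPM in spaQ and 1.92, 2.44 and 2.54 CPM in cop1-4, against 50.8, 49.7 and 57.9 CPM in Col-0. The spaQ libraries lay below the cop1-4 libraries, with no overlap (log2 fold change -2.47, SE 0.21, adjusted p = 2.41e-07). ACS5 and ACS9 proteins are 91.7% identical and reads may be shared. A second ACC synthase gene, ACS8, had 0, 0.31 and 0.105 CPM in the spaQ libraries and 0.18, 0.037 and 0.0445 CPM in the cop1-4 libraries, against 4.37, 6.51 and 5.13 CPM in Col-0. Among the 8 other tested genes of the ACC synthase and apical hook list, 6 fell and 1, ACS7, rose in each mutant (log2 fold changes of ACS7 3.02 in spaQ and 1.26 in cop1-4). HLS1, which is needed for hook bending, fell by 3.21 in spaQ and by 3.00 in cop1-4. GA20OX1, a gibberellin 20-oxidase gene, had 0.433, 0.31 and 0.175 CPM in spaQ and 0.269, 0.481 and 0.311 CPM in cop1-4, against 15.4, 14.2 and 16.9 CPM in Col-0. The mutants overlapped, with 1.97% in spaQ and 2.28% in cop1-4 left. The other tested gibberellin oxidase genes were split, with 6 lower and 3 higher in spaQ and 6 lower and 1 higher in cop1-4. LOG5, whose product releases active cytokinin, had 0.766, 0.696 and 0.561 CPM in the spaQ libraries and 0.419, 0.185 and 0.4 CPM in the cop1-4 libraries, against 19.2, 20.9 and 21.2 CPM in Col-0, one of the 27 members with the higher remainder in spaQ.

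PORA encodes the light-dependent protochlorophyllide oxidoreductase that is typical of etiolated plastids. It had 9.13, 5.7 and 9.36 CPM in spaQ and 15.9, 21.7 and 20.3 CPM in cop1-4, against 1009, 945 and 904 CPM in Col-0. The spaQ libraries lay below all cop1-4 libraries (log2 fold change -1.21, SE 0.16, adjusted p = 1.67e-05). Its closest paralog PORB just missed the limit in cop1-4, with 64.4 ± 12.4 CPM in spaQ and 121 ± 18.4 CPM in cop1-4 against 1384 ± 111 CPM in Col-0 (SD, n = 3). PORC rose in both (log2 fold changes 1.26 in spaQ and 0.54 in cop1-4).

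The 14 transcription factor genes kept 0.33% to 7.85% in spaQ and 0.441% to 7.53% in cop1-4. GRF7, a growth-regulating factor gene, had 1.5, 1.03 and 1.58 CPM in the spaQ libraries and 1.47, 1.96 and 3.6 CPM in the cop1-4 libraries, against 98.5, 79.3 and 89.6 CPM in Col-0. PRE1, an atypical helix-loop-helix protein that promotes cell elongation, had 0.433, 0.129 and 0.316 CPM in spaQ and 0.359, 0.628 and 0.311 CPM in cop1-4, against 11.6, 12 and 10.7 CPM in Col-0, and PRE5, its closest paralog, was left with 1.52% in spaQ and 1% in cop1-4. HEC2, BOA, MYB27, MYB10, BBX23, AGL44, MIF3, LATE, REM1, MYB117 and AT1G70270 complete the group. MYB27 and AGL44 were called lower in spaQ than in cop1-4 (log2 fold changes -2.21 and -2.45), and 12 of the 14 were not called. BOA, a clock-associated gene, is overlapped over 47.9% of its length by another gene. On the list of 15 phytochrome-interacting factors and dark or shade targets used here, PRE1 was the member. The 14 other genes went both ways, 8 lower and 5 higher in spaQ and 7 lower and 6 higher in cop1-4. Members placed on other lists, such as IAA19 and IAA29, were not checked for being such targets. The list therefore gives no count of targets among the members. PIF3 fell by 1.52 in spaQ and by 1.59 in cop1-4, while PIF7 rose by 4.66 and 4.17.

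**Figure D3:**
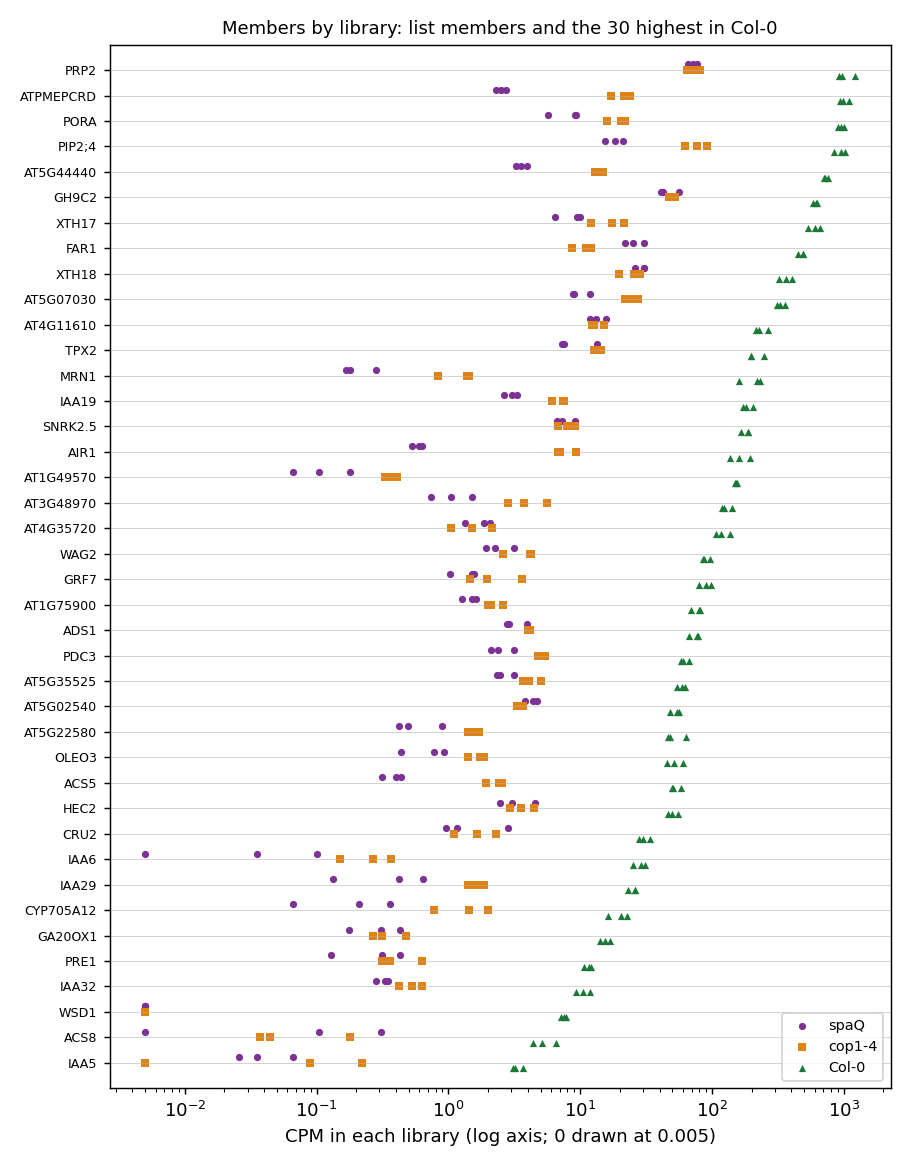
CPM of each library on a log axis for the members on the gene lists and the 30 members with the highest Col-0 means, ordered by Col-0 mean; purple circles are spaQ, orange squares cop1-4 and green triangles Col-0, and a value of 0 is drawn at 0.005. In PRP2 the mutants coincide, in ATPMEPCRD and AIR1 the spaQ circles stand apart to the left, and in FAR1 the order of the mutants is turned round.

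Among the 11 lipid and cuticle genes, FAR1 was the most abundant. It encodes a fatty acyl reductase that makes primary alcohols for suberin and had 25.3, 30.5 and 22 CPM in the spaQ libraries and 8.68, 12.1 and 11.1 CPM in the cop1-4 libraries, against 489.7, 452 and 487 CPM in Col-0. Here spaQ kept more than cop1-4 (log2 fold change 1.36, SE 0.13, adjusted p = 6.61e-07). FAR1 is overlapped over 34.4% of its length by AT5G22505. The endodermis and suberin markers, of which FAR1 is one, summed to 142 to 146 CPM in spaQ, 263 to 357 CPM in cop1-4 and 1404 to 1582 CPM in Col-0. The 12 other markers of that list were all called lower in spaQ than in cop1-4, opposite to FAR1, with log2 fold changes of -0.51 for ASFT to -2.27 for CYP86B1. Against Col-0, 10 of the 12 fell in spaQ, and in cop1-4 6 fell and 3 rose, so that CASP1 averaged 40.5 CPM in spaQ and 97.1 CPM in cop1-4 against 348 CPM in Col-0. WSD1, the wax ester synthase gene, had 0 reads in all 6 mutant libraries against 7.15, 7.78 and 7.58 CPM in Col-0. ADS1, a fatty acid desaturase gene, had 2.9, 3.97 and 2.8 CPM in spaQ and 4.19, 3.99 and 4 CPM in cop1-4, against 78.2, 66.4 and 76.3 CPM in Col-0. The lipase gene AT1G75900 had 1.27, 1.62 and 1.51 CPM in the spaQ libraries and 2.1, 2.59 and 2 CPM in the cop1-4 libraries, against 79.8, 69.4 and 80.5 CPM in Col-0. Among wax genes that are no members, CER1 fell by 3.54 in spaQ and by 2.76 in cop1-4, and CER3 rose by 0.90 and 0.57.

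Of the 10 transporter genes, PIP2;4 stood out by level. This aquaporin gene had 18.4, 15.3 and 21 CPM in spaQ and 62.5, 76.6 and 92 CPM in cop1-4, against 956, 838 and 1027 CPM in Col-0. The cop1-4 libraries all lay above the spaQ libraries (log2 fold change -2.02, SE 0.14, adjusted p = 3.56e-08). Without cop1-4 replicate 1 or Col-0 replicate 3, or with TMM-adjusted totals, the gene no longer met the limit. The heavy-metal-associated protein gene AT3G48970 had 0.733, 1.52 and 1.05 CPM in the spaQ libraries and 2.84, 3.73 and 5.65 CPM in the cop1-4 libraries, against 141, 118 and 124 CPM in Col-0, with spaQ again below every cop1-4 library. AAP6 (amino acid import), UMAMIT36, SLAH1 (anion channel family), ALMT1 (malate channel), VIT1 (vacuolar iron), KT5, ABCG38 and AT1G26730 held 3.27 to 39.2 CPM in Col-0.

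The 12 genes of specialised metabolism summed to 6.66, 7.45 and 7.08 CPM in spaQ and 20.8, 22.8 and 23.7 CPM in cop1-4, against 1032, 1137 and 1107 CPM in Col-0. AT5G44440, a berberine-bridge-enzyme-like gene, had 3.53, 3.97 and 3.26 CPM in spaQ and 14.9, 13 and 13.5 CPM in cop1-4, against 722, 766 and 712 CPM in Col-0. MRN1, the marneral synthase gene of a triterpene cluster on chromosome 5, had 0.167, 0.181 and 0.28 CPM in the spaQ libraries and 0.838, 1.44 and 1.38 CPM in the cop1-4 libraries, against 159, 231 and 219 CPM in Col-0. CYP705A12, a P450 gene of the same cluster, had 0.0666, 0.361 and 0.21 CPM in spaQ and 0.779, 1.44 and 2 CPM in cop1-4, against 16.4, 20.5 and 22.5 CPM in Col-0. In all 3 the spaQ libraries lay below the cop1-4 libraries. CYP71A16, the gene between them, was outside the limit in cop1-4 with 1.14 CPM in spaQ and 11.7 CPM in cop1-4 against 41.3 CPM in Col-0. Together with the thalianol cluster, the 5 other tested genes all fell in spaQ, and in cop1-4 4 fell and 1, THAA1, rose. All 5 were lower in spaQ than in cop1-4, with a median log2 fold change of -2.29. TGG2, a myrosinase gene, kept 5.63% in spaQ and 4.91% in cop1-4, and ESP, whose product directs glucosinolate breakdown to nitriles, 0.332% and 0.298%.

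Grouped under seed and embryo proteins were 6 members, by protein family and not by where they are expressed here. CRU2, which encodes a storage globulin, had 2.83, 0.954 and 1.16 CPM in the spaQ libraries and 1.11, 2.29 and 1.65 CPM in the cop1-4 libraries, against 27.9, 30.1 and 33.9 CPM in Col-0. The mutants overlapped. Its closest paralog CRA1 differed between the mutants, with 140.3 ± 73.9 CPM in spaQ and 13.6 ± 3.17 CPM in cop1-4 against 235 ± 19.6 CPM in Col-0 (SD, n = 3). CRA1 fell by 3.81 in cop1-4, while the value in spaQ, -0.38, was not called (adjusted p = 0.205) with TMM scaling and was with library totals (-0.75, adjusted p = 0.0179). The 8 seed storage markers summed to 426, 135 and 246 CPM in spaQ and 24.6, 51.1 and 42.6 CPM in cop1-4, against 662, 584 and 632 CPM in Col-0. CRA1 and CRU3 made most of the spaQ sums, whereas SESA1 to SESA4 kept 4.53% to 10.5% in spaQ. Of the 7 markers other than CRU2, 5 were called lower in spaQ (median log2 fold change -2.91) and 7 in cop1-4 (median -3.27). CRA1 and CRU3 were the 2 not called in spaQ, and with library totals all 7 were called lower. OLEO3 (an oil body coat protein), RD20 (a caleosin), MFT (a regulator of germination), the late-embryogenesis gene AT3G02480 and the globulin-like gene AT1G03890 are the other members of this group. OLEO3 had 0.933, 0.438 and 0.771 CPM in spaQ and 1.74, 1.40 and 1.87 CPM in cop1-4, against 60.7, 46.0 and 51.8 CPM in Col-0.

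Of the 7 kinase, receptor and small peptide genes, SNRK2.5, which encodes an osmotic-stress-activated kinase, had 9.16, 7.3 and 6.66 CPM in spaQ and 6.74, 7.91 and 9.12 CPM in cop1-4, against 187, 165 and 188 CPM in Col-0. The mutants overlapped, with 4.28% in spaQ and 4.4% in cop1-4 left. ROTUNDIFOLIA-like peptide genes RTFL13 and RTFL21 are in the same group. The remaining 46 members have other or unassigned roles and summed to 65.4, 66.0 and 51.8 CPM in spaQ and 88.5, 96.5 and 96.3 CPM in cop1-4, against 1747, 1645 and 1681 CPM in Col-0. The aspartyl protease gene AT5G07030 had 11.9, 8.77 and 9.01 CPM in the spaQ libraries and 21.9, 27.4 and 25.4 CPM in the cop1-4 libraries, against 327, 314 and 361 CPM in Col-0, with the spaQ libraries lowest. The C2-domain protein gene AT4G11610 had 15.8, 13.2 and 11.8 CPM in spaQ and 15.2, 12.8 and 12.3 CPM in cop1-4, against 227, 267 and 215 CPM in Col-0, with no separation of the mutants. TPX2, which here is a peroxiredoxin gene, had 7.6, 13.3 and 7.26 CPM in the spaQ libraries and 14.1, 12.6 and 14.5 CPM in the cop1-4 libraries, against 247, 198 and 196 CPM in Col-0. It is overlapped over 58.9% of its length and its protein is 98.8% identical to that of AT1G60740, so its reads are uncertain.

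AT4G35720, a gene of unknown function, had 2.07, 1.86 and 1.33 CPM in spaQ and 1.05, 1.52 and 2.13 CPM in cop1-4, against 118, 108 and 138 CPM in Col-0, and the mutants overlapped. The pyruvate decarboxylase gene PDC3 had 3.16, 2.12 and 2.38 CPM in the spaQ libraries and 4.82, 5.43 and 4.98 CPM in the cop1-4 libraries, against 58.4, 66.5 and 60.6 CPM in Col-0. The PLAC8-domain gene AT5G35525 had 2.47, 3.17 and 2.35 CPM in spaQ and 3.65, 4.07 and 5.03 CPM in cop1-4, against 61.9, 59.2 and 54 CPM in Col-0. In both of these spaQ was the lower mutant. The dehydrogenase-like gene AT5G02540 had 4.36, 4.72 and 3.82 CPM in the spaQ libraries and 3.47, 3.7 and 3.34 CPM in the cop1-4 libraries, against 56.1, 48 and 54.6 CPM in Col-0, with spaQ slightly the higher.

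The limit on the members was set on each mutant against Col-0. It did not use the difference between the mutants but used the same libraries and capped both levels, so the counts of members in the direct contrast are a description beside those over all genes, which were under no such cap. At an adjusted p below 0.05 (quasi-likelihood test of edgeR, Benjamini-Hochberg adjusted over 20779 genes), 57 of the 141 members (40.4%) were lower in spaQ than in cop1-4, where 23.5% of all tested genes were called lower. Another 4 (2.84%) were higher, where 24.0% of all genes were, and 80 were not called. The median log2 fold change over members was -0.63, or -0.58 with genes at 0 reads in one mutant set at their bound, against -0.01 over all genes. In 53 of the 57 lower members (93.0%) the libraries of the mutants did not overlap, as was so for 97.7% of all genes called lower. At least a 2-fold difference was seen in 46 and at least a 4-fold difference in 28. With library totals, 0 of the 61 called members changed sign. Few reads limit this contrast: 30 of the 80 members not called had under 30 reads over all 6 mutant libraries, against 10 of the 61 called.

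**Figure D4:**
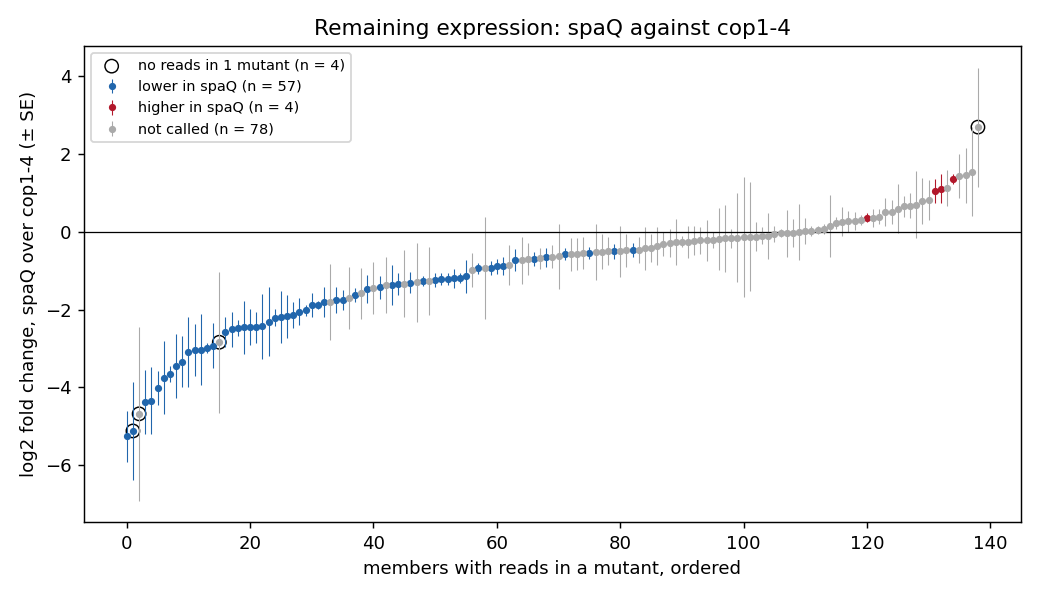
Log2 fold change of spaQ over cop1-4 (vertical, ± SE) for the 139 members with reads in a mutant, in rising order; blue points were called lower in spaQ (57), red points higher (4) and grey points were not called (78). Black rings mark the 4 genes with no reads in 1 mutant, whose fitted values depend on a prior count.

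By role, 7 of the 13 auxin genes and 7 of the 12 specialised metabolism genes were called lower in spaQ than in cop1-4. The counts were 5 of 10 for transporter genes, 5 of 11 for lipid and cuticle genes and 4 of 6 for peroxidase and laccase genes. They were 4 of 11 for cell wall genes, 19 of 46 for other or unassigned roles and 1 of 1 for chlorophyll synthesis. For ethylene, gibberellin and cytokinin synthesis 1 of 4 was lower, and for the seed and embryo group 1 of 6. The transcription factor genes had 2 of 14 and the kinase, receptor and peptide genes 1 of 7. The share was 40.4% over all members and 23.5% over all tested genes. These groups are small, and the difference between roles was not tested. The 5 with the largest fitted difference rest on few spaQ reads. The lipid-transfer protein gene AT4G22610 had 0, 0.0258 and 0 CPM in spaQ and 0.479, 0.554 and 0.667 CPM in cop1-4, against 9.01, 7.02 and 9.77 CPM in Col-0, or 1 read over the spaQ libraries against 46 over cop1-4, a ratio of 0.0185 with a 95% counting interval of 0.000459 to 0.109. AT1G29490 (SAUR68) had 1 read against 24, a ratio of 0.0355 (0.000863 to 0.218), and 0, 0.0258 and 0 CPM in the spaQ libraries and 0.24, 0.148 and 0.534 CPM in the cop1-4 libraries, against 10.8, 8.43 and 10.1 CPM in Col-0. The peroxidase gene AT2G41480 (PRX25) had 2 reads against 43, a ratio of 0.0396 (0.00465 to 0.152), and 0.0666, 0 and 0 CPM in spaQ and 0.24, 0.665 and 0.756 CPM in cop1-4, against 8.51, 6.76 and 11.1 CPM in Col-0. These exact intervals cover counting error only. In each of the 3 genes the highest spaQ library lay below the lowest cop1-4 library.

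AT2G28780, which has no assigned role, had 7 reads over the spaQ libraries against 106 over cop1-4, so its spaQ level also rests on few reads. It had 0.0666, 0.0774 and 0.0701 CPM in the spaQ libraries and 1.26, 1.55 and 0.979 CPM in the cop1-4 libraries, against 41, 48.3 and 33.3 CPM in Col-0 (log2 fold change -4.02, SE 0.43, adjusted p = 2.6e-06). AT2G37870, another lipid-transfer protein gene, had no read in spaQ and 11 in cop1-4, at least 1.34-fold lower against a floor of 3 counts per library. Among the 19 members above 100 CPM in Col-0, the largest differences were those of AIR1 (log2 fold change -3.65, SE 0.21, adjusted p = 5.87e-09), ATPMEPCRD, MRN1 (log2 fold change -2.45, SE 0.40, adjusted p = 0.000152) and PIP2;4.

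The 4 members that were higher in spaQ were FAR1, LOG5, GH9B12 and AT5G02540. Of these, FAR1 kept its call under each alternative that was run. LOG5 (log2 fold change 1.05, SE 0.30, adjusted p = 0.00862) lost it without cop1-4 replicate 2 (0.76, adjusted p = 0.054). GH9B12 had 0.7, 0.748 and 0.316 CPM in spaQ and 0.389, 0.185 and 0.267 CPM in cop1-4, against 9.38, 10.3 and 9.91 CPM in Col-0, with an overlap between mutants (log2 fold change 1.11, SE 0.37, adjusted p = 0.0232). Its call was lost without replicate 2 (0.87) or 3 (1.06) of cop1-4 and without replicate 1 (1.00) or 2 (0.87) of spaQ, and when the 6 mutant libraries were fitted alone (1.1, adjusted p = 0.0598). AT5G02540 (log2 fold change 0.36, SE 0.12, adjusted p = 0.0238) lost it without replicate 3 of cop1-4 (0.32), without replicate 1 (0.36) or 2 (0.28) of spaQ, with library totals (0.30) and when the mutant libraries were fitted alone (0.36, adjusted p = 0.0561). On the lower side the calls of CEL2, WAG2 and TPX2 also depended on single libraries. The value of WAG2 was -0.37 (adjusted p = 0.176) without cop1-4 replicate 2, that of CEL2 -0.79 (adjusted p = 0.207) without cop1-4 replicate 1, and that of TPX2 -0.33 (adjusted p = 0.187) without spaQ replicate 3.

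Some members had no read at all in a mutant. WSD1 and the methyltransferase-like gene AT5G37970 were at 0 in all 6 mutant libraries. With a floor of 3 counts per library, WSD1 was at least 79.7-fold lower in spaQ and at least 67.3-fold lower in cop1-4 than in Col-0. AT5G37970, with 3.1, 2.24 and 3.08 CPM in Col-0, was at least 29.8-fold and 25.2-fold lower. In spaQ alone the non-coding RNA gene AT1G09103, AT2G37870 and the ABC transporter gene ABCG38 had no read. AT1G09103 had 0, 0 and 0.089 CPM in cop1-4 and 3.87, 2.78 and 2.90 CPM in Col-0, and lies wholly within another gene. AT2G37870 had 0.15, 0.185 and 0.0445 CPM in cop1-4 and 5.36, 5.39 and 7.04 CPM in Col-0. ABCG38 had 0.0299, 0.222 and 0.0445 CPM in cop1-4 and 2.76, 6.69 and 2.09 CPM in Col-0, an uneven level among the Col-0 libraries. In cop1-4 alone the Kunitz-type protease inhibitor gene AT1G72290 had no read (at least 125-fold lower), with 0.0333, 0 and 0.0351 CPM in spaQ and 15.4, 12.6 and 13.6 CPM in Col-0.

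Just inside the limit of 8.33% lay AT5G43520, with 8.33% left in spaQ and 7.67% in cop1-4, AT4G01335 with 4.09% and 8.22%, and PDC3 with 4.13% and 8.21%. AT5G43520 had 1.6, 3.92 and 0.841 CPM in the spaQ libraries and 1.74, 1.85 and 2.27 CPM in the cop1-4 libraries, against 28.6, 22.3 and 25.3 CPM in Col-0, and spaQ replicate 2 set its spaQ mean. AT4G01335 had 0.266, 0.181 and 0.631 CPM in spaQ and 0.389, 1.11 and 0.667 CPM in cop1-4, against 9.69, 7.74 and 8.92 CPM in Col-0. Just outside were the transcription factor gene AT1G44830 (8.36% in spaQ and 4.67% in cop1-4), ENODL18 (4.64% and 8.41%) and the sulfate transporter gene SULTR3;5 (8.43% and 6.55%). ENODL18 had 3.80, 4.33 and 4.42 CPM in spaQ and 6.17, 7.65 and 8.94 CPM in cop1-4, against 92.5, 84.3 and 93.7 CPM in Col-0. AT1G44830 had 1.83, 0.748 and 1.02 CPM in spaQ and 0.329, 0.924 and 0.756 CPM in cop1-4, against 15.9, 12.1 and 15 CPM in Col-0. SULTR3;5 had 0.366, 0.361 and 0.316 CPM in spaQ and 0.299, 0.111 and 0.4 CPM in cop1-4, against 2.85, 5.24 and 4.28 CPM in Col-0.

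By the rule, any closest relative outside the group that met the Col-0 minimum had to keep more than 8.33% in at least 1 mutant. Several rose, while VSP1, the paralog of VSP2, fell by 6.39 in spaQ and by 2.23 in cop1-4 on the log2 scale. AT5G39180, the paralog of AT5G39150, averaged 1.53 CPM in Col-0, below the minimum, and fell by 4.19 and 4.56. The best other protein match, with at least 40% identity over at least 50% of the member, was found for 120 members and was itself a member for 14 of them. Of the 103 other paralogs 80 had enough reads to be tested. In spaQ 49 of these 80 fell and 17 rose (median log2 fold change -1.27), and in cop1-4 47 fell and 10 rose (median -0.86). Of all tested genes, 36.1% were called lower and 35.5% higher in spaQ, and 30.3% and 31.8% in cop1-4. With library totals 60 of the 80 paralogs fell and 11 rose in spaQ, and 53 fell and 9 rose in cop1-4. TGG1, the paralog of the myrosinase gene TGG2, averaged 813 ± 52.9 CPM in spaQ and 682 ± 27.8 CPM in cop1-4 against 285 ± 14 CPM in Col-0 (SD, n = 3), log2 fold changes of 1.88 and 1.57. The B-box gene LZF1, the paralog of BBX23, rose by 1.57 and 2.00, and the lipase gene AT1G75880, the paralog of AT1G75900, by 2.14 in each. ADS2 rose by 0.67 and 0.91 while ADS1 was a member. AT5G44410, the paralog of AT5G44440, rose by 0.45 and 0.93, of which the spaQ call was lost with library totals (0.08, adjusted p = 0.476). SNRK2.1, whose protein is 89.2% identical to that of SNRK2.5, averaged 58.4 ± 1.66 CPM in spaQ and 65.4 ± 6.17 CPM in cop1-4 against 74.6 ± 5.88 CPM in Col-0 and was not called with TMM scaling (log2 fold changes 0.02 and 0.12). With library totals the spaQ value was -0.35 and called lower. PIP2B, by contrast, fell with PIP2;4 but kept more, 219.9 ± 7.45 CPM in spaQ and 436 ± 45.1 CPM in cop1-4 against 1299 ± 97.7 CPM in Col-0. Besides XTH17 and XTH18, ACS5 and TPX2, pairs of at least 90% identity were AT5G39150 with AT5G39180, AT3G55310 with AT3G55290, CYP710A4 with CYP710A3, PXMT1 with AT1G66690, PDC3 with AT5G01320, AT5G37950 with AT5G38010 and DAU2 with AT1G09157, and the counts of these members are uncertain.

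**Figure D5:**
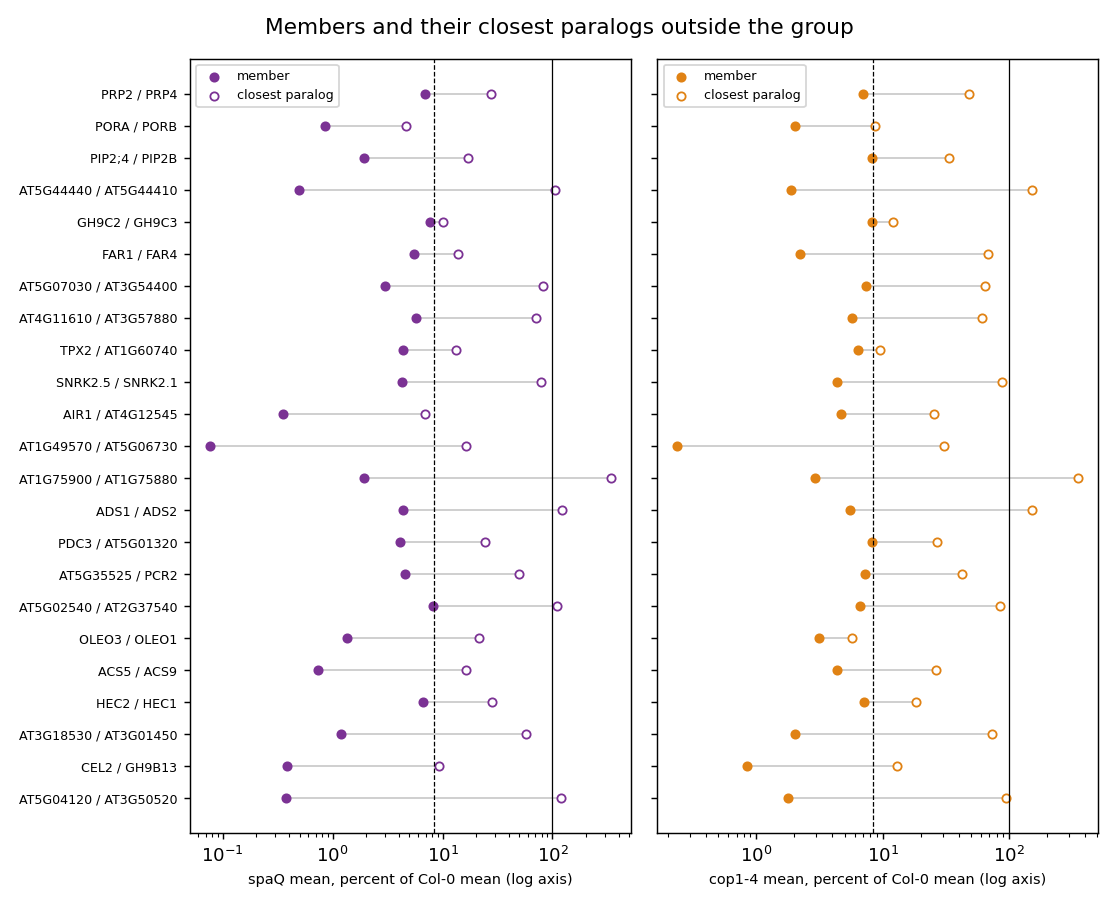
Percentage of the Col-0 mean left in spaQ (left panel) and cop1-4 (right panel) on log axes, for the 23 members with the highest Col-0 means that have a tested closest paralog outside the group; filled points are the members, open points the paralogs, the dashed line is the limit of 8.33% and the solid line 100%. AT1G75880, ADS2 and AT5G44410 lie above 100% in both mutants, while PORB and GH9C3 lie close to the limit.

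The members were spread over the chromosomes, with 34, 20, 25, 22 and 40 on chromosomes 1 to 5. Among pairs of members, 6 lay within 3 genes of each other and 3 of these were adjacent: CRU2 with AT1G03890, UMAMIT36 with AT1G70270, and the hydrolase genes AT4G17470 and AT4G17480, which stand 45 bases apart on the same strand. The others were AT3G48940 with AT3G48970, AT5G37950 with AT5G37970, and CYP705A12 with MRN1. Of the 270 neighbouring genes that are no members, 194 were tested. In spaQ 87 of them fell and 63 rose, and in cop1-4 85 fell and 49 rose, with median log2 fold changes of -0.23 and -0.19. Of all tested genes, 36.1% were called lower and 35.5% higher in spaQ, and 30.3% and 31.8% in cop1-4, with medians of -0.02 and 0.01.

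The authors' deposited tables of regulated genes list each of the 141 members in both mutants. In the authors' deposited table for spaQ the members' log2 fold changes run from -9.68 to -3.1 with a median of -5.22, and in that for cop1-4 from -9.45 to -3.14 with a median of -4.31.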

How the data were processed

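Raw read counts per gene, deposited by the authors for 9 libraries, were the starting point. Per the submitters' processing notes, the build was TAIR10 and the tools included HTSeq, TopHat, Bowtie2, FastQC and DESeq2, with neither versions nor roles; the strandedness of counting is not given in the sources used here. For each mutant there is also, deposited by the authors, a table of regulated genes with log2 fold changes and p-values adjusted as a false discovery rate, which were only listed here. Library totals were 22482588 to 38770474 counts.

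CPM was computed on column totals, as the rule for members requires. Counts were tested with edgeR 4.0.16 (R 4.3.3): filterByExpr, TMM scaling, and a quasi-likelihood model of genotype on the 9 libraries together (20779 genes, 6 residual degrees of freedom). Genes were called below 0.05 after Benjamini-Hochberg adjustment. The step was tested on simulated data. DESeq2 1.42.0, library totals, no filter, a replicate block, the mutant libraries alone and leaving out each library were alternatives. Gene models, start sites and sequences are those of RefSeq TAIR10.1, matched by gene identifier; the files give identifiers of TAIR10 and no coordinates. Closest paralogs came from BLAST+ 2.17.0 on translated coding sequences. Where a group had 0 reads, folds use a floor of 3 counts per library; floors and intervals cover counting error only.

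The members, the gene lists and the tests were chosen with earlier results of these data known. Values in every library are given for members on the lists, the 20 other members with the highest Col-0 means, the 5 largest called differences between the mutants in each direction (4 were called higher), members at 0 in a mutant and the 3 genes on either side of the limit. Other members are given by role.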

Additional observations from a re-analysis of the deposited data

How the results depend on the processing

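The rule gave 228 members with a limit of 1/8 and 97 with 1/16, 105 with TMM-adjusted totals, 170 and 113 with a Col-0 minimum of 1 and 5 CPM, and 133 to 150 when 1 library was left out. Abundant members lost with TMM-adjusted totals include PRP2, PIP2;4, GH9C2, XTH18 and AT5G07030. Members lower in spaQ than in cop1-4 numbered 37 when the 6 mutant libraries were fitted alone, where 46 of the 61 called members passed the filter on low counts, and 50 to 58 when 1 library was left out (57 in the fit over all libraries). Members higher in spaQ numbered 7 without the filter on low counts, 3 with library totals, 6 with DESeq2 and 2 to 6 when 1 library was left out (lowest without spaQ replicate 1). No called member changed sign under these alternatives. Of the 61, 36 were tested and called in each, and 15 were not tested in the fit of the mutant libraries alone. DESeq2 lost the calls of TPX2, PXMT1, AT3G50120 and AT4G36430. Pathway list genes outside the group called higher in spaQ than in Col-0 numbered 17 with library totals and 26 with TMM scaling, and closest paralogs 11 and 17; the cause was not tested beyond the shift of the median given with the Aux/IAA family. With TMM scaling and at least 60% identity, 10 closest paralogs were called higher, of 60 tested in place of 80.

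Deviations of libraries with the same replicate number correlated at -0.149 to 0.163, and those with different numbers at -0.216 to 0.279. The deviations are taken from means of 3 libraries, so whether same-numbered libraries share a batch cannot be told from these values. A fit with the replicate block gave 57 members lower and 5 higher in spaQ and lost the calls of PXMT1 and WAG2.

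The low counts of the members, which the rule chose for low mutant levels, limit the direct contrast. Of the members, 41 had under 10 reads in all spaQ libraries together and 24 in cop1-4.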
